A study of Mus musculus with 8 samples.

Results

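The pancreas of mice fed a high-fat diet (HFD) was compared with that of mice fed a low-fat diet (LFD) across all 15047 genes of the deposited expression values, in 6 of the 8 mice of the series, 3 on each diet. All 6 were male C57BL/6 WT mice that received their diet from 4 weeks of age for 10 weeks, and in the HFD 60% of the calories came from fat. The other 2 mice were leptin-deficient ob/ob mice on standard chow, and they enter here for the estimate of the spread and for a test of whether a gene differed between HFD and ob/ob mice. The sample labels name only the pancreas, while the study's methods state that all mice also carried orthotopic transplants of organoids grown from tumours of KPC mice, so RNA of the host pancreas and of transplanted cells cannot be told apart. In bulk tissue, fewer cells of a type and less RNA per cell cannot be told apart either.

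Each value is an rlog value, that is, a read count corrected for library size and put on the log2 scale, on which differences of genes with few reads are shrunk. A difference of 1 therefore stands for a 2-fold difference, or more where a gene has few reads. The counts behind the values were not used here, so sequencing depth is unknown and the error given is the spread between mice. The 6 mice had median values between 7.09 and 7.25, and the LFD mice were close to each other (Pearson r of 0.981 to 0.982 between pairs, across genes) while the HFD mice were farther apart (0.908 to 0.958). The median SD of a gene was 0.226 in LFD and 0.348 in HFD, and 69.2% of the genes had the larger SD in HFD. The tissue carried its defining acinar transcripts in every mouse: 30 genes of digestive enzymes made up 60.7%, 61.6% and 63.0% of the summed linear values in LFD replicates 1 to 3, and 59.9%, 40.5% and 21.3% in HFD replicates 1 to 3. HFD replicate 1 thus lay within 1 percentage point of the lowest LFD mouse, and the other HFD mice well below. For most gene lists, counts are therefore also given without each mouse and with the acinar mean added to the model as a covariate. The acinar mean is the average rlog value of those 30 genes in a mouse.

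The exocrine pancreas consists mostly of acinar cells, which make and secrete digestive enzymes and for this need a large endoplasmic reticulum and a steady supply of amino acids. Ducts carry the juice, islets release hormones into the blood, and a small stroma of fibroblasts, macrophages and vessels lies between them. The circadian clock runs in most of these cells, and feeding time and diet are known to set its phase in peripheral organs. In injury and in tumours of the pancreas, acinar transcripts are commonly low, while transcripts of ducts, matrix and myeloid cells are high.

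Genes were compared by limma, and no gene had a Benjamini-Hochberg adjusted p under 0.05 (0% of 15047 genes). The smallest adjusted p was 0.0864, for the clock gene Nr1d2. Before adjustment, 2985 genes (19.8%) had a p under 0.05 and, of these, 1728 genes (11.5% of all) were higher in HFD and 1257 genes (8.35%) lower. With each mouse centred on its median, which shifts all genes by the same amount within a mouse, 1490 were higher and 1588 lower, so the larger number of higher genes rests on the scaling. In 1941 genes (12.9%) every HFD mouse lay above every LFD mouse, and in 1844 genes (12.3%) every HFD mouse lay below; an exact test of 3 mice against 3 cannot go below p = 0.1. The difference was above 1 in 1185 genes and below -1 in 638 genes, and of these 734 and 373 had no overlap between the groups. A gap of at least 1 between the groups was present in 21 genes higher and 20 genes lower in HFD, and a gap of at least 0.5 in 266 and 133.

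Most of the large differences came from HFD replicates 2 and 3. In replicate 1, 457 genes lay more than 1 from the LFD mean, compared with 2812 in replicate 2 and 3818 in replicate 3. In replicates 2 and 3 alike, 4519 genes lay above and 3997 below the range of the LFD mice. Without HFD replicate 1, 1632 genes (10.8%) had an adjusted p under 0.05 and were higher, and 1180 (7.84%) were lower. Without the other mice in turn the number with an adjusted p under 0.05 was 0, while the number with an unadjusted p under 0.05 went down to between 909 (without HFD replicate 2) and 1389 (without LFD replicate 2) for higher genes and to between 554 (without HFD replicate 3) and 781 (without LFD replicate 1) for lower genes. With the acinar covariate 906 genes (6.02%) were higher and 705 (4.69%) lower at an unadjusted p under 0.05.

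**Figure D1:**
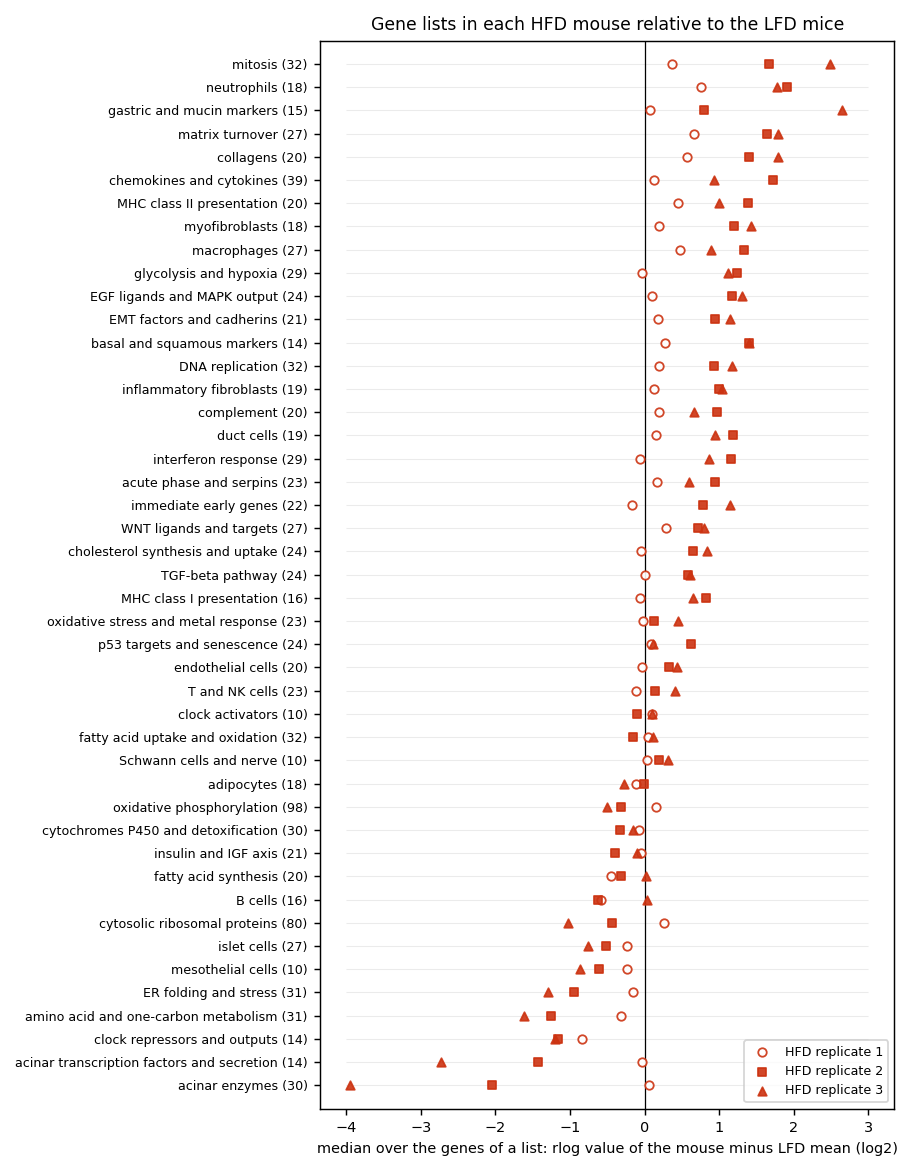
Median difference from the LFD mean (log2) over the genes of each list, for HFD replicate 1 (open circles), 2 (squares) and 3 (triangles); the number of measured genes stands in brackets, and lists under 10 genes are left out. The clock repressors and outputs were low in all 3 HFD mice (-0.84, -1.16 and -1.20), whereas the acinar enzymes were near the LFD level in replicate 1 and low in replicates 2 and 3 (0.06, -2.05 and -3.96).

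Genes were grouped in 49 lists by function or cell type, with 1165 of 1235 members measured. The other members were not in the deposited values and enter no count. Over all 15047 genes the median difference between HFD and LFD was 0.03, and 52.4% of the genes had a difference above 0. List medians are given below for HFD minus LFD and, where they differ between mice, for each HFD mouse minus the LFD mean. Counts over lists stand beside the shares over all genes, which were 11.5% higher and 8.35% lower at an unadjusted p under 0.05. These shares also moved between fits, to 19.8% and 16.4% without HFD replicate 1 and to 6.04% and 3.79% without HFD replicate 2. With the acinar covariate they were 6.02% and 4.69%. List counts of a fit are to be read against the shares of that fit.

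Among genes with a mean of at least 5, the 12 with the widest gap between the groups in each direction were followed up. Saa3 (chromosome 7, 46711998 to 46715700 of GRCm38, Gencode M21), an acute phase protein made by stromal and epithelial cells, was at 6.01, 6.43 and 6.19 in LFD replicates 1 to 3 and at 8.16, 9.33 and 8.67 in HFD replicates 1 to 3. All HFD mice were above all LFD mice, by 2.51 on the log2 scale between the means (standard error 0.29) and by 1.73 between the nearest mice, and the limma test gave an adjusted p of 0.118. The microfibril gene Fbn2 was at 5.66, 5.47 and 5.35 in LFD and 7.27, 7.77 and 8.60 in HFD (difference 2.38, adjusted p = 0.142). Vcan (chromosome 13, 89655312 to 89742509), a large proteoglycan of the matrix, stood at 6.62, 6.70 and 6.18 in LFD and 8.36, 8.10 and 8.91 in HFD, and HFD replicate 1 was not the lowest of its group (difference 1.96, adjusted p = 0.124). Srd5a1, a steroid 5-alpha-reductase, was at 6.03, 6.37 and 5.98 in LFD and 7.54, 8.96 and 9.02 in HFD, with the ob/ob mice at 6.59 and 7.33 in between. The ob/ob mice thus lay above LFD and below HFD for this gene. The GTPase-activating protein Arhgap42 was at 5.51, 5.47 and 5.37 in LFD and 6.73, 7.24 and 7.87 in HFD. Ccdc120 was at 4.63, 4.49 and 4.65 in LFD and 5.83, 6.47 and 6.36 in HFD. Mms22l, which acts in the repair of broken replication forks, was at 4.67, 4.89 and 4.99 in LFD and 6.11, 6.38 and 6.58 in HFD. In the last 3 genes the LFD mice lay close together and the HFD mice farther apart, with replicate 1 the lowest of them.

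On the lower side the widest gap of all genes was that of Rnu3b1, a U3 small nucleolar RNA that guides the processing of ribosomal RNA. It was at 12.26, 12.39 and 12.99 in LFD and 6.94, 6.81 and 6.78 in HFD, a difference of -5.70 (standard error 0.86, adjusted p = 0.15) with a gap of 5.32. The ob/ob mice stood at 11.03 and 6.78, one near the LFD level and the other at the HFD level, so the values of the 8 mice formed a high and a low set rather than a range. When only the 6 LFD and HFD mice were fitted, Rnu3b1 was the 1 gene (0.00665%) with an adjusted p under 0.05. U3 RNA has close gene copies, among which reads can be shared, and the value of this copy is uncertain for that reason. Slc30a2, a zinc transporter of secretory cells, was at 7.32, 7.21 and 7.41 in LFD and 5.74, 5.22 and 5.55 in HFD. Its neighbour on chromosome 4, Extl1, a glycosyltransferase gene, was at 7.63, 7.64 and 7.38 in LFD and 6.29, 5.61 and 4.77 in HFD. Both genes had no overlap, and only Extl1 was ordered among the HFD mice like the acinar share. Rab3a, a small GTPase of secretory vesicles, was at 6.67, 6.85 and 7.11 in LFD and 5.70, 5.29 and 5.24 in HFD. Rph3al, an effector of such GTPases, was at 7.42, 6.996 and 7.63 in LFD and 5.97, 6.02 and 5.75 in HFD. In Slc30a2, Rph3al and Rnu3b1 the 3 HFD mice, with acinar shares from 21.3% to 59.9%, lay close together. Whether these genes depend on the acinar share was not tested. Without counts, it is not known whether the nearly equal low values of Rnu3b1 stand for few or no reads.

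**Figure D2:**
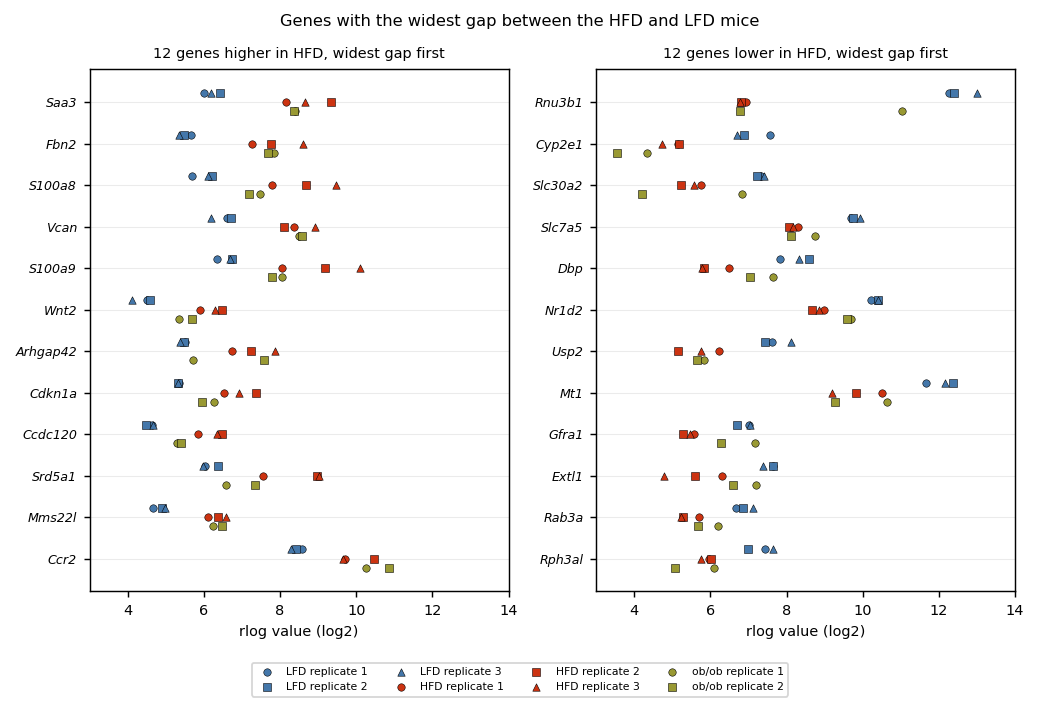
rlog values (log2) of the 12 genes higher and the 12 genes lower in HFD with the widest gap between groups, for LFD (blue), HFD (red) and ob/ob (olive) mice; symbols give the replicate number. Rnu3b1 lies at 12.26, 12.39 and 12.99 in LFD and 6.94, 6.81 and 6.78 in HFD, and in Nr1d2 and Dbp the ob/ob mice lie between both groups.

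The lowest adjusted p of the table belonged to a clock gene, and the clock repressors and outputs were low in all 3 HFD mice. In the mammalian clock, the activators BMAL1 (gene Arntl), CLOCK and NPAS2 drive E-box genes that include the repressors of the Per and Cry families, the nuclear receptors Nr1d1 and Nr1d2 (REV-ERB alpha and beta) and the output factors Dbp, Tef and Hlf. REV-ERBs in turn repress Arntl and Npas2, so that the level of Arntl peaks when those of Per and Dbp are near their trough. Of the repressors and outputs, 9 of 14 (64.3%) had an unadjusted p under 0.05 and were lower in HFD, compared with 8.35% of all genes, 9 of 14 (64.3%) had no overlap between the groups, compared with 12.3%, and 1 was higher. The list median was -1.10, and it was -0.84, -1.16 and -1.20 in HFD replicates 1 to 3.

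The promoters of clock genes are shown because the E-box and the D-box are sequences through which parts of this loop are known to run. Sequences are from RefSeq on GRCm38.p6, windows of 300 bases that reach over the start of transcription, 5′ to 3′, with capitals for an E-box (CACGTG, which reads the same on both strands), an E′-box (CACGTT or its complement AACGTG) or a D-box (TTATGTAA or TTACATAA).
Per1 (chr11:69098699-69098998, plus strand): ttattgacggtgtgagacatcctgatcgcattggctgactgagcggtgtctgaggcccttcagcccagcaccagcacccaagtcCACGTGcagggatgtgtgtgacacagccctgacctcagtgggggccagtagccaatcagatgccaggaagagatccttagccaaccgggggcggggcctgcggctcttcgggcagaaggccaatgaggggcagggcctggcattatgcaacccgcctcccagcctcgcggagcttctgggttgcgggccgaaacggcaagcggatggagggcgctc
Ciart (chr3:95882179-95882478, minus strand): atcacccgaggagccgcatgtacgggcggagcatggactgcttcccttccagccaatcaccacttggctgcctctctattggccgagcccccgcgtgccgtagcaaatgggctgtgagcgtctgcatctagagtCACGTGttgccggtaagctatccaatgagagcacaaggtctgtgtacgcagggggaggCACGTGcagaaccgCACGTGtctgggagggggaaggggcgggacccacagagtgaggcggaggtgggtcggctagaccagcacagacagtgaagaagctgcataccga
Per3 (chr4:151044616-151044915, minus strand): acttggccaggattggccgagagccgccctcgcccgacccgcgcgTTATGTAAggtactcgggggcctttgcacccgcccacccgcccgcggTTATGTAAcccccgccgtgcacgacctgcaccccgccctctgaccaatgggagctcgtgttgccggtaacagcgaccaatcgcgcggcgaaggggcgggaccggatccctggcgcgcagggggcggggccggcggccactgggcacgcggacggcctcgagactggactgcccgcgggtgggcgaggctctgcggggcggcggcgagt
Dbp (chr7:45704997-45705296, plus strand): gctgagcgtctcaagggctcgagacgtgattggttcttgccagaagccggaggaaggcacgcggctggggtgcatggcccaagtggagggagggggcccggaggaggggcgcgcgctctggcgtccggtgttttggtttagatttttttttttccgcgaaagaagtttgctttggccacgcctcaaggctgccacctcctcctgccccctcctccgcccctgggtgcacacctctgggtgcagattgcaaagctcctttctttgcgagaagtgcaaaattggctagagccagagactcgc
Of the 14 repressors and outputs 12 had a promoter in that set, and an E-box was in 5 of them (Per1, Cry1, Ciart, Tef and Bhlhe41), compared with 8.09% of all 27025 genes with a promoter. A gene with several windows was counted if any of them held the letters. Per1 has another window, not shown, that held no E-box, E′-box or D-box. An E′-box was in 3 (Cry1, Cry2 and Nr1d1), compared with 5.44%, and a D-box in 1 (Per3, where it stands in 2 places), compared with 1.11%. Only the exact letters given above were searched for, so other forms of these sites are not counted. In the window of Dbp none of these letters were found, and none of the 7 activators with a promoter held an E-box, E′-box or D-box. The ROR half-site (AGGTCA or TGACCT), not marked above, was in 3 of these 7 (Arntl, Clock and Nfil3). It was in 2 of the 12 repressors and outputs (Per1 and Nr1d2), and in 18.1% of all genes with a promoter. A match is a description of the sequence, and no binding was measured.

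Nr1d2 (chromosome 14, 18204054 to 18239127) was at 10.21, 10.40 and 10.40 in LFD and 8.98, 8.67 and 8.85 in HFD. The groups lay 1.23 apart, more than the spread within either, and the difference was -1.51 (standard error 0.15, adjusted p = 0.0864). Dbp (chromosome 7, 45705088 to 45710203), a D-box activator and one of the strongest rhythmic genes of most organs, was at 7.82, 8.58 and 8.32 in LFD and 6.50, 5.84 and 5.77 in HFD (difference -2.21, standard error 0.30, adjusted p = 0.142). Per1 (chromosome 11, 69095217 to 69109960), shown above with its E-box, was at 8.10, 7.36 and 7.75 in LFD and 6.51, 6.70 and 6.71 in HFD. Per3 (chromosome 4, 151003652 to 151044665), with its D-boxes, was at 8.60, 8.39 and 8.52 in LFD and 7.58, 7.20 and 6.99 in HFD. For both no HFD mouse reached the lowest LFD mouse, with differences of -1.10 (adjusted p = 0.175) and -1.25 (adjusted p = 0.15). Tef, the relative of Dbp, stood at 10.11, 10.02 and 10.26 in LFD and 9.32, 8.84 and 8.94 in HFD (difference -1.10). Usp2, a deubiquitinase under clock control, was at 7.62, 7.44 and 8.11 in LFD and 6.23, 5.14 and 5.74 in HFD (difference -2.02). Per2, Cry2 and Ciart had differences of -1.25, -1.10 and -0.79, also without overlap. The exceptions in the list were Bhlhe40, a repressor that many stress signals induce, which was higher in HFD replicates 2 and 3 (8.16, 8.18 and 7.45 in LFD and 8.06, 9.61 and 9.68 in HFD), and Nr1d1, Bhlhe41, Cry1 and Hlf, whose groups overlapped (differences -0.38, 0.16, -0.49 and -0.97).

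The list of clock activators was split in direction, with 5 of 10 higher and 5 lower in HFD and a median of 0.06. At an unadjusted p under 0.05, 2 (20%) were higher and 1 (10%) lower, compared with 11.5% and 8.35% of all genes. Among the activators, Arntl (chromosome 7, 113207465 to 113314126) was at 6.47, 5.78 and 5.77 in LFD and 8.07, 7.44 and 7.57 in HFD, a difference of 1.69 (standard error 0.27, adjusted p = 0.15), and it was highest in HFD replicate 1. Npas2 was at 3.45, 2.81 and 3.03 in LFD and 4.75, 3.95 and 4.57 in HFD, and every HFD mouse was above every LFD mouse in both genes. Clock itself differed by 0.16, within the spread of the mice, and Rora, an activator of Arntl, was at 9.75, 9.66 and 9.76 in LFD and 9.69, 8.42 and 7.95 in HFD (difference -1.04), low only in the mice with a low acinar share. The ob/ob mice stood between the diets for Nr1d2 (at 9.70 and 9.59), Dbp (at 7.64 and 7.05), Tef (at 9.79 and 9.59) and Per3 (at 7.81 and 7.60). Between HFD and ob/ob 5 of 14 (35.7%) of the list were lower in HFD at an unadjusted p under 0.05, compared with 2.28% of all genes, in a test in which 588 genes (3.91%) had such a p in either direction and 0 genes (0%) passed after adjustment. The hour at which tissue was taken is not given in the sources used here, and its part in these values was not tested. On leaving out each mouse the number of repressors and outputs that were lower went from 8 (without LFD replicate 1 or LFD replicate 2 or HFD replicate 3) to 10 (without LFD replicate 3 or HFD replicate 1). Allowing for the acinar mean, it was 8, compared with 4.69% of all genes. Without HFD replicate 1 it was 9 at an adjusted p under 0.05, compared with 7.84% of all genes.

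**Figure D3:**
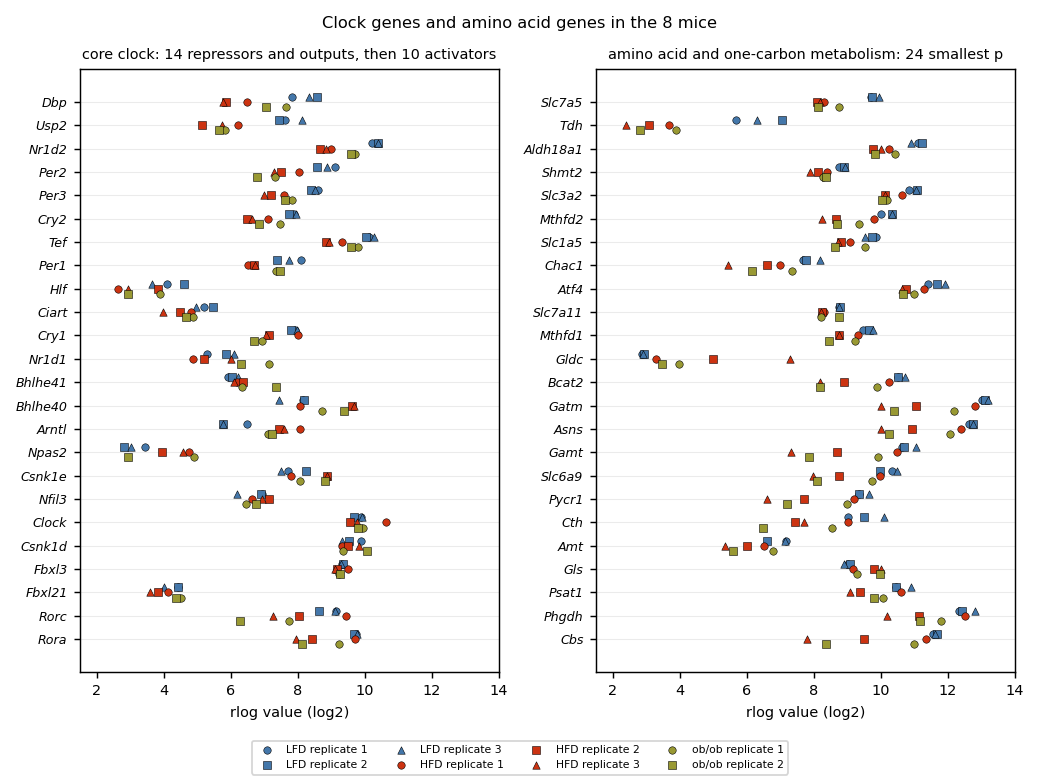
rlog values (log2) of 24 clock genes, sorted by difference within repressors and outputs and within activators, and of the 24 genes of amino acid and one-carbon metabolism with the smallest p, in LFD (blue), HFD (red) and ob/ob (olive) mice. In the clock panel Dbp, Usp2 and Nr1d2 have all HFD mice below all LFD mice and Arntl the reverse, and in the amino acid panel HFD replicate 3 is often the lowest mouse.

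Genes that supply and make amino acids were lower in HFD. Of the list of amino acid and one-carbon metabolism, 23 of 31 (74.2%) were lower at an unadjusted p under 0.05, compared with 8.35% of all genes. At the same threshold 3 (9.68%) were higher, compared with 11.5%. In 19 of 31 (61.3%) all HFD mice lay below all LFD mice, compared with 12.3%. The median was -1.07 (-0.31, -1.25 and -1.61 in HFD replicates 1 to 3). Slc7a5 (chromosome 8, 121881150 to 121907694), which brings leucine and other large neutral amino acids into the cell, was at 9.69, 9.73 and 9.94 in LFD and 8.31, 8.07 and 8.17 in HFD, a difference of -1.60 (standard error 0.20, adjusted p = 0.124). Its HFD values were close to each other and did not follow the acinar share. The partner chain Slc3a2 was at 10.82, 11.07 and 11.05 in LFD and 10.61, 10.13 and 10.12 in HFD. Tdh (chromosome 14, 63492347 to 63509092), which breaks down threonine, was at 5.67, 7.03 and 6.31 in LFD and 3.66, 3.08 and 2.37 in HFD (difference -3.30, adjusted p = 0.15), with a gap of 2.01 between the groups. Aldh18a1, the first enzyme of proline synthesis, stood at 11.09, 11.21 and 10.90 in LFD and 10.23, 9.77 and 9.99 in HFD. Shmt2, the mitochondrial serine hydroxymethyltransferase, was at 8.76, 8.88 and 8.91 in LFD and 8.40, 8.13 and 7.88 in HFD. In each of these 5 genes all HFD mice were below all LFD mice.

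Slc3a2, Tdh and Shmt2 were ordered among the HFD mice like the acinar share, and so were other members of the list. Asns, asparagine synthetase, was at 12.61, 12.74 and 12.75 in LFD and 12.38, 10.93 and 9.99 in HFD. Gatm, the first enzyme of creatine synthesis, was at 12.998, 13.10 and 13.18 in LFD and 12.81, 11.05 and 10.01 in HFD, so that HFD replicate 1 was just below the lowest LFD mouse and replicate 3 far below. Atf4, the transcription factor that drives many genes of this list when amino acids are short or the endoplasmic reticulum is stressed, was at 11.39, 11.68 and 11.90 in LFD and 11.28, 10.74 and 10.62 in HFD (difference -0.78). Its target Chac1 was at 7.66, 7.75 and 8.18 in LFD and 6.99, 6.61 and 5.43 in HFD (difference -1.52). The glycine decarboxylase Gldc went the other way, with 2.88, 2.94 and 2.89 in LFD and 3.29, 4.98 and 7.28 in HFD, a difference of 2.28 carried by replicates 2 and 3. In the model with the acinar covariate 16 genes were lower and 0 higher, compared with 4.69% and 6.02% of all genes. Without HFD replicate 1, 22 were lower at an adjusted p under 0.05, compared with 7.84% of all genes. With 1 mouse left out at a time, the lower genes went from 9 (without LFD replicate 3 or HFD replicate 2 or HFD replicate 3) to 25 (without HFD replicate 1).

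Genes of protein folding and stress in the endoplasmic reticulum had a median of -0.87 (-0.16, -0.95 and -1.30 in HFD replicates 1 to 3). At an unadjusted p under 0.05, 13 of 31 (41.9%) were lower, compared with 8.35% of all genes. Ssr1, a subunit of the translocon-associated complex, was at 11.85, 12.06 and 12.16 in LFD and 11.49, 10.86 and 10.74 in HFD. Sec61a1, the channel through which new proteins enter, was at 12.37, 12.55 and 12.41 in LFD and 12.02, 11.49 and 11.32 in HFD. The chaperone Hyou1 was at 12.41, 12.55 and 12.44 in LFD and 11.96, 11.14 and 10.83 in HFD. Herpud1, of the degradation pathway, was at 12.70, 12.92 and 12.78 in LFD and 12.29, 10.92 and 10.84 in HFD. For these 4 genes the groups did not overlap, and the low values of replicates 2 and 3 stood with the low acinar share of these mice. Hspa5 and Ddit3, the best known reporters of folding stress, differed by -0.61 and 0.10, with overlap between the groups. Once the acinar mean was in the model, 6 genes were lower, compared with 4.69% of all genes, and on leaving out each mouse the count went from 3 (without HFD replicate 2) to 24 (without HFD replicate 1).

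Neutrophil genes were higher in HFD, 14 of 18 (77.8%) at an unadjusted p under 0.05 compared with 11.5% of all genes, and 12 of 18 (66.7%) without overlap compared with 12.9%. The median was 1.48, and 0.76, 1.92 and 1.78 in HFD replicates 1 to 3, so that replicate 1 took part in it. Of the 24 genes of the list, Ly6g, Camp, Ngp, Elane, Mpo and Stfa2l1 were not in the deposited values. The calprotectin chains S100a8 (chromosome 3, 90668978 to 90670035) and S100a9 (chromosome 3, 90692632 to 90695721), the most abundant proteins of the neutrophil cytosol, stood out by size. S100a8 was at 5.69, 6.21 and 6.10 in LFD and 7.78, 8.69 and 9.47 in HFD, and S100a9 was at 6.35, 6.74 and 6.69 in LFD and 8.06, 9.17 and 10.11 in HFD. No HFD mouse overlapped with LFD, and the differences were 2.65 (standard error 0.39, adjusted p = 0.15) and 2.52 (standard error 0.44, adjusted p = 0.162). Mmp8, the neutrophil collagenase, was at 2.54, 2.58 and 3.01 in LFD and 3.74, 4.71 and 4.45 in HFD. Retnlg, a secreted neutrophil protein, was at 3.87, 4.68 and 3.87 in LFD and 6.09, 6.24 and 5.42 in HFD, where HFD replicate 3 was the lowest of its group. Of the defining receptors, Cxcr2 was at 4.54, 6.19 and 5.09 in LFD and 6.12, 6.93 and 7.39 in HFD, and Csf3r was at 6.11, 6.92 and 5.36 in LFD and 6.35, 7.87 and 8.40 in HFD. LFD replicate 2 reached into the HFD range in both. Padi4 and Fpr1 differed by 0.31 and 0.52 with overlap. After the acinar mean was added, 11 of the list were higher, compared with 6.02% of all genes, and on leaving out each mouse the count went from 9 (without LFD replicate 3 or HFD replicate 2) to 14 (without HFD replicate 1).

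Of the macrophage genes 13 of 27 (48.1%) were higher and 1 lower at an unadjusted p under 0.05, compared with 11.5% and 8.35% of all genes. The median was 0.95 (0.48, 1.34 and 0.88 in HFD replicates 1 to 3). Ccr2 (chromosome 9, 124101950 to 124113557), the receptor by which monocytes follow CCL2, was at 8.57, 8.43 and 8.28 in LFD and 9.70, 10.46 and 9.65 in HFD (difference 1.51, standard error 0.26, adjusted p = 0.16). Adgre1, which encodes F4/80, stood at 8.75, 8.58 and 8.15 in LFD and 9.30, 10.12 and 9.82 in HFD. C1qb, a chain of complement C1q made by macrophages, was at 9.27, 9.44 and 9.16 in LFD and 10.03, 11.05 and 10.32 in HFD. Fcgr3, an activating Fc receptor, was at 9.04, 8.62 and 8.65 in LFD and 9.56, 10.74 and 9.84 in HFD. The groups did not overlap in these 4 genes, and HFD replicate 2 was the highest mouse of the diet groups in each. The general markers Cd68 and Csf1r had HFD replicate 1 inside the LFD range, Cd68 at 7.60, 6.90 and 6.56 in LFD and 7.08, 8.15 and 7.68 in HFD and Csf1r at 9.76, 9.79 and 8.93 in LFD and 9.77, 10.83 and 10.86 in HFD. Cd163, a receptor of resident macrophages, was at 7.42, 7.21 and 7.33 in LFD and 7.25, 7.38 and 6.999 in HFD, a difference of -0.11. With the acinar covariate 8 of the list were higher, and on leaving out each mouse the count went from 8 (without LFD replicate 3 or HFD replicate 2) to 20 (without HFD replicate 1).

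Presentation by MHC class II is the route by which macrophages, dendritic cells and B cells show peptides to CD4+ T cells. Its list had 12 of 20 (60%) higher genes, compared with 11.5% of all genes, and a median of 1.01. H2-DMa, a chain of the factor that loads the peptide, was at 6.82, 7.26 and 6.54 in LFD and 7.82, 8.69 and 8.03 in HFD. Its partner H2-DMb1 was at 6.95, 7.20 and 7.02 in LFD and 7.80, 8.99 and 8.12 in HFD. H2-Aa, a chain of the molecule itself, was at 10.71, 11.25 and 10.72 in LFD and 11.72, 12.76 and 11.79 in HFD. Every HFD mouse was above every LFD mouse for these 3 genes, and HFD replicate 2 was the highest. B cells also hold class II, and LFD replicate 2 had by far the highest value of the B cell gene Pax5 (1.76, 7.13 and 1.998 in LFD). Class I presentation had a smaller median of 0.41, 5 of 16 (31.2%) higher genes and 0 without overlap, B2m being at 10.68, 10.89 and 10.43 in LFD and 10.85, 11.95 and 11.54 in HFD. Over the 6 fits without 1 mouse, these counts went from 6 (without LFD replicate 3 or HFD replicate 2) to 17 (without LFD replicate 2) for class II and from 0 (without LFD replicate 1 or LFD replicate 3 or HFD replicate 2 or HFD replicate 3) to 10 (without HFD replicate 1) for class I. Adding the acinar mean to the model left 6 higher class II genes, with a median of 0.65, and 0 higher and 2 lower class I genes.

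Chemokines and cytokines were higher in 20 of 39 (51.3%) at an unadjusted p under 0.05, compared with 11.5% of all genes. The median was 1.05 (0.13, 1.72 and 0.93 in HFD replicates 1 to 3). Ccl8, a chemokine for monocytes and eosinophils, was at 8.21, 8.49 and 8.10 in LFD and 9.48, 10.13 and 9.19 in HFD, a difference of 1.34 (standard error 0.24, adjusted p = 0.169). Il1rn, the antagonist of the interleukin 1 receptor, was at 6.28, 6.54 and 5.58 in LFD and 7.34, 9.03 and 8.75 in HFD (difference 2.24, adjusted p = 0.175). Its counterpart Il1b was at 6.23, 7.50 and 6.89 in LFD and 7.84, 9.55 and 9.09 in HFD. Cxcl16 stood at 7.61, 8.09 and 7.76 in LFD and 8.50, 9.97 and 9.37 in HFD. HFD replicate 2 was the highest mouse for Il1rn, Il1b, Cxcl16 and Ccl8. Ccl2, a ligand of Ccr2, was at 4.64, 5.01 and 4.59 in LFD and 5.52, 6.40 and 5.79 in HFD. Ccl7, another, was at 4.32, 4.08 and 4.19 in LFD and 4.84, 5.91 and 5.61 in HFD, both without overlap. Tnf was at 4.80, 4.88 and 3.77 in LFD and 5.08, 6.54 and 5.54 in HFD, a difference of 1.23. Allowing for the acinar mean, 11 of the list were higher, and on leaving out each mouse the count went from 12 (without HFD replicate 2) to 26 (without HFD replicate 1).

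Genes of the interferon response all had a mean above that of LFD (29 of 29), compared with 52.4% of all genes. Only 5 of 29 (17.2%) had an unadjusted p under 0.05, compared with 11.5% of all genes that were higher. Stat2, a transducer of type I interferon, was at 7.20, 7.11 and 7.11 in LFD and 7.71, 7.60 and 7.88 in HFD and had no overlap, whereas Isg15, a target, was at 4.56, 4.77 and 4.26 in LFD and 4.58, 6.03 and 5.83 in HFD, with HFD replicate 1 inside the LFD range. The list median was -0.07, 1.16 and 0.87 in HFD replicates 1 to 3, and the count of higher genes was 1 without HFD replicate 2 and 21 without HFD replicate 1. It was 2 with the acinar covariate. Of complement genes 9 of 20 (45%) were higher and 1 lower. Acute phase and serpin genes had 8 of 23 (34.8%) higher and 2 lower members. For both lists the shares of all genes were 11.5% and 8.35%. The haemoglobin-binding Hp was at 8.68, 8.09 and 7.94 in LFD and 9.20, 10.20 and 10.005 in HFD. The protease inhibitor A2m was at 5.16, 5.24 and 4.47 in LFD and 6.08, 7.03 and 6.74 in HFD, both without overlap. Itih4, of the inter-alpha-trypsin inhibitor heavy chain family, was lower, at 11.57, 11.18 and 11.03 in LFD and 10.10, 9.13 and 7.23 in HFD. In the model with the acinar covariate the acute phase list had 8 higher and 2 lower genes, and on leaving out each mouse the higher genes went from 4 (without LFD replicate 1 or HFD replicate 2) to 10 (without HFD replicate 1).

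Matrix genes were higher in HFD, in replicate 1 as well. Of the list of matrix turnover, which holds proteases, their inhibitors and cross-linking enzymes, 20 of 27 (74.1%) were higher at an unadjusted p under 0.05 and 21 of 27 (77.8%) had no overlap between the groups, compared with 11.5% and 12.9% of all genes. The median was 1.36 (0.66, 1.65 and 1.78 in HFD replicates 1 to 3). Lox, which cross-links collagen and elastin, was at 7.08, 6.99 and 6.24 in LFD and 7.999, 8.74 and 8.97 in HFD, a difference of 1.80 (standard error 0.33, adjusted p = 0.169). Timp1, an inhibitor of metalloproteinases, was at 6.58, 7.33 and 6.71 in LFD and 7.91, 9.51 and 9.17 in HFD (difference 1.99, adjusted p = 0.175). Of the proteases, the stromelysin Mmp3 stood at 6.72, 7.39 and 6.19 in LFD and 8.11, 9.15 and 8.68 in HFD. The gelatinase Mmp9, also a neutrophil gene, was at 5.94, 6.34 and 5.55 in LFD and 6.83, 7.94 and 8.65 in HFD. In all 4 the HFD mice were above the LFD mice, and replicate 1 was the lowest HFD mouse. As single mice were left out, the count went from 16 (without LFD replicate 2 or HFD replicate 2) to 21 (without HFD replicate 1), and with the acinar mean as a covariate it was 16, compared with 6.02% of all genes.

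Of the collagens 15 of 20 (75%) were higher and 1 lower, compared with 11.5% and 8.35% of all genes. The median was 1.25 (0.56, 1.40 and 1.78 in HFD replicates 1 to 3). Col1a1 (chromosome 11, 94936224 to 94953042), the main chain of fibrous type I collagen, was at 9.79, 9.28 and 8.89 in LFD and 10.63, 11.28 and 12.53 in HFD (difference 2.16, standard error 0.45, adjusted p = 0.175). Col1a2 was at 11.06, 10.82 and 10.65 in LFD and 11.67, 12.25 and 13.05 in HFD. Col5a2, a chain of type V collagen that starts fibrils, was at 10.01, 10.04 and 9.53 in LFD and 10.67, 11.74 and 11.80 in HFD (difference 1.54, adjusted p = 0.175). Col8a1 was at 8.60, 8.44 and 8.01 in LFD and 9.14, 10.04 and 10.13 in HFD. The type III chain Col3a1 was at 12.41, 12.46 and 11.92 in LFD and 12.75, 13.75 and 14.44 in HFD. The basement membrane chain Col4a1 was at 10.33, 9.98 and 9.56 in LFD and 10.38, 11.38 and 11.81 in HFD. The ob/ob mice had Col1a1 at 11.29 and 11.72 and Col5a2 at 11.45 and 11.32, within the HFD range. On leaving out each mouse the count of higher collagens went from 7 (without LFD replicate 3) to 17 (without HFD replicate 1), and with the acinar mean as a covariate it was 10.

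Genes of contractile and inflammatory fibroblasts were higher in 10 of 18 (55.6%) and 6 of 19 (31.6%) of the members, compared with 11.5% of all genes. Postn (chromosome 3, 54361109 to 54391037), a secreted protein of activated fibroblasts, was at 9.11, 9.52 and 8.96 in LFD and 10.52, 11.35 and 11.04 in HFD, a difference of 1.78 (standard error 0.25, adjusted p = 0.143). Inhba, an activin chain, stood at 5.59, 5.20 and 4.84 in LFD and 5.68, 7.25 and 7.52 in HFD. Ptgs2, the inducible cyclooxygenase, was at 4.14, 4.85 and 4.11 in LFD and 4.83, 6.19 and 6.58 in HFD. The general fibroblast markers overlapped between the groups, with differences of 0.57 for Pdgfra, 0.65 for Pdgfrb and 0.71 for Acta2. With 1 mouse left out at a time, the counts went from 2 (without LFD replicate 3) to 13 (without HFD replicate 1) and from 4 (without LFD replicate 3 or HFD replicate 2 or HFD replicate 3) to 11 (without HFD replicate 1). The acinar covariate took these counts to 4 and 3, and the medians from 0.99 and 0.76 to 0.52 and 0.33.

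In the WNT list 11 of 27 (40.7%) were higher and 13 had no overlap, led by the ligand Wnt2 (chromosome 6, 17988940 to 18030585) at 4.49, 4.58 and 4.11 in LFD and 5.90, 6.49 and 6.30 in HFD (difference 1.83, standard error 0.27, adjusted p = 0.15). Nkd2, an antagonist that WNT itself induces, was at 6.24, 6.001 and 5.99 in LFD and 7.13, 8.04 and 7.73 in HFD. The ligand Wnt7b was at 6.54, 6.78 and 6.03 in LFD and 7.09, 9.06 and 8.84 in HFD. In the TGF-beta list 7 of 24 (29.2%) were higher, among them Bmp1, which trims procollagen, at 7.98, 8.003 and 7.56 in LFD and 8.34, 9.64 and 9.79 in HFD. The list of EMT factors and cadherins had 8 of 21 (38.1%) higher genes, such as the mesenchymal cadherin Cdh11 at 7.93, 7.79 and 7.34 in LFD and 8.35, 8.83 and 8.89 in HFD. Beside the WNT, TGF-beta and EMT lists, 11.5% of all genes were higher, and 12.9% were higher without overlap. The collagen receptor Itga2 was at 6.996, 7.45 and 6.69 in LFD and 7.96, 10.16 and 10.29 in HFD. Over the 6 fits without 1 mouse, these counts went from 7 (without LFD replicate 1 or HFD replicate 2) to 13 (without HFD replicate 1) for WNT, from 3 (without LFD replicate 3 or HFD replicate 2 or HFD replicate 3) to 11 (without HFD replicate 1) for TGF-beta and from 5 (without HFD replicate 2 or HFD replicate 3) to 15 (without HFD replicate 1) for EMT. When the acinar mean entered the model the counts were 6 for WNT, 3 for TGF-beta and 5 for EMT. Igfbp3, which binds insulin-like growth factors, was at 9.76, 9.74 and 9.50 in LFD and 10.59, 11.39 and 11.45 in HFD (difference 1.48, adjusted p = 0.16), whereas the kinase gene Akt1 was lower, at 11.28, 11.14 and 11.50 in LFD and 10.76, 10.53 and 10.37 in HFD, and the insulin and IGF list as a whole had a median of -0.23.

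Mitosis genes were higher in 29 of 32 (90.6%) of the list at an unadjusted p under 0.05, compared with 11.5% of all genes. In 16 of 32 (50%) all HFD mice lay above all LFD mice, compared with 12.9%. The median was 1.58, but it differed between mice, with 0.37, 1.67 and 2.49 in HFD replicates 1 to 3. Hmmr, which acts at the spindle, was at 5.05, 5.71 and 5.36 in LFD and 7.04, 6.68 and 7.38 in HFD, a difference of 1.66 (standard error 0.31, adjusted p = 0.17). Mki67, which encodes the proliferation marker Ki-67, was at 7.60, 8.17 and 7.24 in LFD and 8.83, 9.16 and 10.87 in HFD. The checkpoint kinase Bub1 was at 4.28, 5.05 and 4.29 in LFD and 5.48, 6.65 and 7.05 in HFD. In these 3 genes replicate 1 was above all LFD mice, whereas Cdk1, the kinase that starts mitosis, was at 5.54, 5.77 and 6.47 in LFD and 6.19, 8.06 and 8.40 in HFD and replicate 1 lay inside the LFD range. DNA replication genes were higher in 12 of 32 (37.5%), with Hells, a chromatin remodeller, at 5.50, 5.39 and 6.15 in LFD and 7.14, 7.74 and 7.85 in HFD. Once the acinar mean was in the model, 11 mitosis genes and 7 replication genes were higher, and on leaving out each mouse the count went from 11 (without HFD replicate 3) to 32 (without HFD replicate 1), and that of replication genes from 7 (without LFD replicate 1 or HFD replicate 3) to 25 (without HFD replicate 1).

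Among inhibitors of the cell cycle, Cdkn1a (chromosome 17, 29090976 to 29100727), which encodes p21, a p53 target that halts the cycle, was at 5.34, 5.33 and 5.32 in LFD and 6.53, 7.38 and 6.91 in HFD, a difference of 1.61 (standard error 0.27, adjusted p = 0.151). The LFD mice were nearly equal and all HFD mice lay above them. Of the list of p53 targets and senescence 5 of 24 (20.8%) were higher and 0 lower, compared with 11.5% and 8.35% of all genes. Pmaip1, an inducer of cell death, was at 5.76, 6.08 and 5.72 in LFD and 6.29, 7.96 and 7.95 in HFD. Cdkn2b, an inhibitor of the kinases of early G1, was at 5.82, 6.02 and 5.80 in LFD and 6.25, 8.36 and 7.59 in HFD. After the acinar mean was added, 5 of the list were higher, and on leaving out each mouse the count went from 2 (without HFD replicate 2) to 8 (without HFD replicate 1). Over all genes the higher shares in these fits were 6.02%, 6.04% and 19.8%.

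Acinar transcripts differed more among the HFD mice than among the LFD mice. All 30 enzyme genes had a lower mean in HFD, with a median of -1.96. Only 3 of 30 (10%) had an unadjusted p under 0.05, compared with 8.35% of all genes that were lower. The median was 0.06, -2.05 and -3.96 in HFD replicates 1 to 3. The carboxypeptidase Cpa1 was at 19.91, 19.97 and 20.01 in LFD and 19.89, 17.998 and 15.998 in HFD. The trypsinogen Prss2 was at 20.47, 20.69 and 21.13 in LFD and 21.19, 18.86 and 16.91 in HFD, where replicate 1 was the highest of all 6 mice. Trypsinogen and Reg genes have near-identical copies, so their single values are uncertain. The phospholipase Pla2g1b was at 11.99, 12.02 and 12.28 in LFD and 11.60, 9.86 and 7.88 in HFD. The zymogen granule protein Gp2 was at 17.03, 17.25 and 17.47 in LFD and 16.68, 14.94 and 13.12 in HFD. Replicate 1 was below the LFD mice in both. The transcription factors of acinar identity had the same order of HFD mice, Ptf1a at 7.96, 8.16 and 8.42 in LFD and 8.45, 6.87 and 4.60 in HFD and Bhlha15 at 11.20, 11.09 and 11.47 in LFD and 11.20, 9.25 and 7.55 in HFD. Rab3d, a GTPase of the zymogen granule, was at 11.79, 11.90 and 11.84 in LFD and 11.47, 10.19 and 9.29 in HFD without overlap. Without HFD replicate 1, 7 of the 30 enzymes had an adjusted p under 0.05 and 18 an unadjusted one. Of all genes 7.84% and 16.4% were lower at these thresholds. Without LFD replicate 1 the unadjusted count was 1. Without any single one of the other 4 mice no enzyme had an unadjusted p under 0.05.

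The Reg genes, secreted proteins of stressed acinar cells, had a median of -1.43 (0.17, -1.35 and -3.12 in HFD replicates 1 to 3) and no member with an unadjusted p under 0.05 in either direction. Reg3b was at 14.82, 15.24 and 15.25 in LFD and 15.48, 14.02 and 12.67 in HFD. Reg3a was at 12.31, 12.75 and 12.22 in LFD and 13.31, 12.06 and 10.14 in HFD. The genes of cytosolic ribosomal proteins, 80 in number, had a median of 0.26, -0.44 and -1.03 in HFD replicates 1 to 3, and 1 was lower at an unadjusted p under 0.05. Oxidative phosphorylation, with 98 genes, had a median of 0.16, -0.31 and -0.50, 6 lower genes and 1 higher. Of all genes 8.35% were lower and 11.5% higher. Within it Ndufv1, a subunit of complex I, was at 10.05, 10.28 and 10.18 in LFD and 9.76, 9.53 and 9.64 in HFD without overlap, whereas Cox7a1, a complex IV subunit of muscle and brown fat, was at 2.60, 2.40 and 2.57 in LFD and 3.23, 3.89 and 5.71 in HFD. With the acinar covariate the medians changed sign, to 0.33 for Reg, 0.16 for ribosomal proteins and 0.07 for oxidative phosphorylation, with 3 higher Reg genes and 1 lower oxidative phosphorylation gene. Leaving out each mouse took the lower genes of oxidative phosphorylation from 1 (without LFD replicate 3) to 37 (without HFD replicate 1). The lower ribosomal genes went from 0 (without LFD replicate 2 or LFD replicate 3 or HFD replicate 2 or HFD replicate 3) to 52 (without HFD replicate 1). Without HFD replicate 1, 16.4% of all genes were lower.

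**Figure D4:**
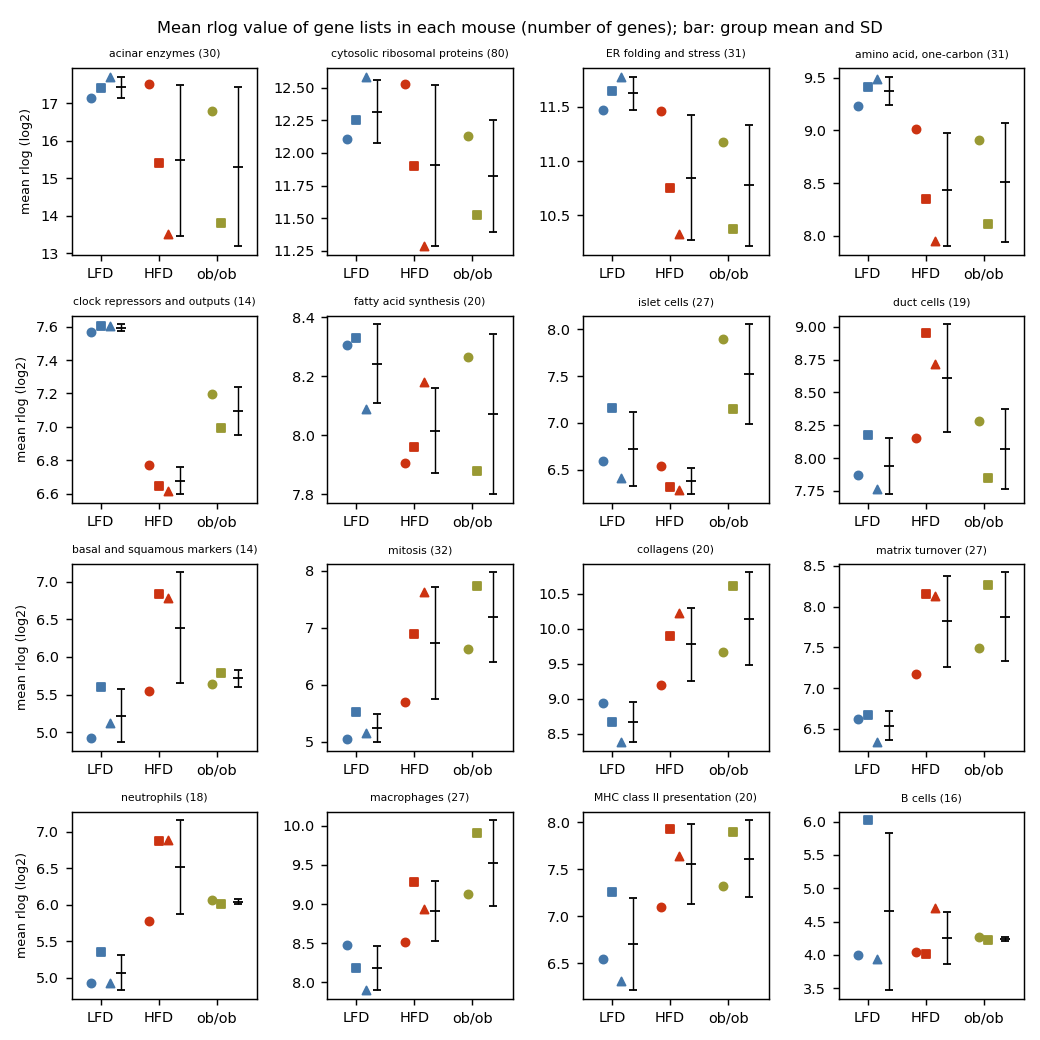
Mean rlog value (log2) of the genes of 16 lists in each mouse, with group mean and SD beside the points (circles, squares and triangles for replicates 1, 2 and 3); the axes do not start at 0 and differ between panels. Clock repressors and outputs are at 7.59 ± 0.02 (SD, n = 3) in LFD and 6.68 ± 0.08 (SD, n = 3) in HFD, duct and basal genes are higher in HFD replicates 2 and 3 than in every other mouse, and in the islet panel an ob/ob mouse is highest.

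Some epithelial genes of ducts were higher in HFD, mostly in replicates 2 and 3, while the mean of the list in HFD replicate 1 was below that of LFD replicate 2 and of an ob/ob mouse. Of the duct list 7 of 19 (36.8%) were higher than in LFD at an unadjusted p under 0.05 and 6 of 19 (31.6%) higher than in ob/ob, compared with 11.5% and 1.63% of all genes. Car2, the carbonic anhydrase that supplies bicarbonate, was at 7.15, 8.33 and 7.45 in LFD, 8.72, 8.90 and 10.04 in HFD and 7.37 and 7.12 in ob/ob, so that no HFD mouse overlapped with another group (difference to LFD 1.58, adjusted p = 0.179). The keratin Krt7 was at 8.92, 9.74 and 8.89 in LFD and 9.78, 11.52 and 11.63 in HFD. Krt19 was at 9.26, 9.95 and 9.33 in LFD and 9.82, 11.26 and 11.47 in HFD, with replicate 1 near the highest LFD mouse in both. Epcam stood at 9.74, 10.24 and 10.04 in LFD and 10.35, 11.41 and 10.95 in HFD. The duct transcription factor Sox9 did not follow, with 7.12, 6.93 and 6.94 in LFD and 7.07, 7.03 and 6.85 in HFD (difference -0.01), and the chloride channel Cftr differed by 0.96 with overlap. The list median was 0.16, 1.18 and 0.94 in HFD replicates 1 to 3, with the acinar mean as a covariate 4 were higher, and on leaving out each mouse the count went from 2 (without HFD replicate 2) to 13 (without HFD replicate 1).

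Gastric and mucin genes, which pancreatic precursor lesions are known to express, were higher in 5 of 15 (33.3%), compared with 11.5% of all genes. Their median was 0.08, 0.79 and 2.65 in HFD replicates 1 to 3. Muc5ac, Muc5b, Muc6, Gkn2 and Cldn18 of this list were not in the deposited values. Onecut2, a transcription factor of foregut epithelium, was at 7.47, 7.49 and 7.04 in LFD, 8.09, 8.87 and 9.37 in HFD and 7.24 and 7.08 in ob/ob (difference to LFD 1.44, adjusted p = 0.175). The membrane mucin Muc4 was at 5.01, 5.15 and 3.75 in LFD and 5.67, 6.16 and 7.16 in HFD. Anxa10, a gastric annexin, was at 2.90, 3.20 and 3.43 in LFD and 3.99, 5.02 and 7.99 in HFD, with HFD replicate 3 far above the rest. Basal and squamous genes were higher in 8 of 14 (57.1%) against LFD and in 5 of 14 (35.7%) against ob/ob. Of all genes these were 11.5% and 1.63%. Krt5, Krt15, Trp63 and S100a2 of this list were not in the deposited values. The serpin Serpinb5 was at 5.28, 5.97 and 5.26 in LFD and 6.19, 7.51 and 7.63 in HFD. Sfn, which encodes 14-3-3 sigma, was at 6.23, 6.72 and 6.43 in LFD and 6.72, 8.07 and 7.90 in HFD. As single mice were left out, the counts went from 2 (without LFD replicate 1) to 8 (without HFD replicate 1) for gastric and from 3 (without LFD replicate 1 or HFD replicate 2 or HFD replicate 3) to 10 (without HFD replicate 1) for basal genes. With the acinar covariate they were 2 for gastric and 3 for basal genes.

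In the list of EGF ligands and MAPK output 10 of 24 (41.7%) were higher and 1 lower, compared with 11.5% and 8.35% of all genes. Areg, an EGF receptor ligand, was at 3.42, 3.65 and 3.70 in LFD and 4.43, 6.69 and 7.03 in HFD, a difference of 2.46 (adjusted p = 0.179). Ereg was at 2.86, 2.91 and 3.40 in LFD and 3.85, 4.86 and 6.20 in HFD. The receptor Erbb2 was at 6.62, 6.69 and 6.20 in LFD, 7.33, 7.56 and 7.55 in HFD and 6.48 and 6.37 in ob/ob, with a narrow HFD group above both others (difference to LFD 0.97, standard error 0.21, adjusted p = 0.175). Egfr differed by 0.34 with overlap, and Nrg1, a ligand of the ERBB family, was at 3.07, 3.57 and 3.29 in LFD and 4.18, 5.08 and 6.13 in HFD. Immediate early genes were higher in 6 of 22 (27.3%), with Junb at 7.23, 7.81 and 7.49 in LFD and 7.95, 9.76 and 9.39 in HFD. Fos was at 6.06, 6.26 and 6.05 in LFD and 6.34, 7.42 and 7.70 in HFD. On leaving out each mouse the counts went from 6 (without LFD replicate 2 or HFD replicate 2 or HFD replicate 3) to 18 (without HFD replicate 1) and from 2 (without HFD replicate 2) to 12 (without HFD replicate 1). Under the acinar covariate they were 5 and 2, and the medians went from 0.92 and 0.56 to 0.34 and 0.14.

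Lipid genes differed by pathway and between HFD mice. Of fatty acid synthesis 7 of 20 (35%) were lower in HFD at an unadjusted p under 0.05, compared with 8.35% of all genes, and 1 was higher. In 8 of 20 (40%) all HFD mice lay below all LFD mice, compared with 12.3%. The median was -0.29 (-0.45, -0.32 and 0.01 in HFD replicates 1 to 3), so that replicate 3 was near the LFD level. Scd1 (chromosome 19, 44394455 to 44407879), which makes monounsaturated fatty acids and is known to respond to dietary fat, was at 12.03, 11.58 and 11.003 in LFD and 10.49, 10.12 and 10.11 in HFD, a difference of -1.29 (standard error 0.32, adjusted p = 0.179). Fads1, a desaturase of polyunsaturated fatty acids, was at 9.07, 8.89 and 8.87 in LFD and 8.49, 8.26 and 8.28 in HFD. Its relative Fads2 was at 8.23, 8.69 and 8.63 in LFD and 7.77, 7.55 and 7.33 in HFD. Neither overlapped between the diets. Gpam, the first step of triglyceride synthesis, stood at 9.74, 9.72 and 9.47 in LFD and 9.19, 8.30 and 8.10 in HFD. Acss2, which makes acetyl-CoA from acetate, was at 7.51, 7.29 and 7.25 in LFD and 6.73, 6.49 and 6.82 in HFD. In these 5 genes HFD replicate 1 was below the LFD mice like the other HFD mice. Fasn, the fatty acid synthase, was at 10.39, 10.35 and 9.999 in LFD and 9.62, 9.75 and 10.09 in HFD. The regulator Srebf1 was at 9.65, 9.22 and 9.06 in LFD and 9.17, 8.88 and 9.49 in HFD, with overlap. Allowing for the acinar mean, 8 were lower, compared with 4.69% of all genes, and on leaving out each mouse the count went from 5 (without LFD replicate 1 or LFD replicate 2 or HFD replicate 2) to 7 (without LFD replicate 3 or HFD replicate 3).

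Cholesterol genes had 8 of 24 (33.3%) higher, compared with 11.5% of all genes, and 0 lower. Their median was 0.47, but it was -0.05, 0.65 and 0.83 in HFD replicates 1 to 3, so that replicate 1 was near the LFD level. Cyp51, a sterol demethylase, was at 7.65, 7.73 and 7.88 in LFD and 8.29, 9.15 and 9.34 in HFD (difference 1.17, standard error 0.28, adjusted p = 0.176). Idi1, an isomerase of the same path, was at 6.26, 6.63 and 6.54 in LFD and 6.95, 7.84 and 7.77 in HFD. Fatty acid uptake and oxidation showed little difference, with 2 higher and 1 lower of 32 genes and a median of 0.06. The lipid droplet coat Plin2 was at 9.02, 8.82 and 8.25 in LFD and 8.77, 10.46 and 10.36 in HFD. The uptake gene Slc27a1 was at 9.28, 9.19 and 9.27 in LFD and 8.80, 8.60 and 7.87 in HFD. Leaving out each mouse took the higher cholesterol genes from 3 (without LFD replicate 3 or HFD replicate 3) to 13 (without HFD replicate 1), and with the acinar mean as a covariate 2 were higher.

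Glycolysis and hypoxia genes had a median of -0.04, 1.25 and 1.12 in HFD replicates 1 to 3. Of these genes 8 of 29 (27.6%) were higher and 2 lower, compared with 11.5% and 8.35% of all genes. The glucose transporter Slc2a3 was at 4.63, 4.90 and 4.27 in LFD and 5.50, 6.11 and 6.48 in HFD. Egln3, a prolyl hydroxylase that hypoxia induces, was at 5.03, 5.54 and 5.34 in LFD and 6.36, 7.96 and 7.26 in HFD, both without overlap. Lactate dehydrogenase Ldha was at 10.59, 10.82 and 10.73 in LFD and 10.89, 12.10 and 12.11 in HFD. The transporter Slc2a1 was at 6.85, 6.90 and 6.87 in LFD and 6.62, 8.91 and 8.69 in HFD, so that replicate 1 had Slc2a1 below the LFD mice and Slc2a3 above them. With 1 mouse left out at a time, the count of higher genes went from 3 (without LFD replicate 1 or HFD replicate 2 or HFD replicate 3) to 19 (without HFD replicate 1). The acinar covariate left 3 higher and 1 lower, and the median over all HFD mice went from 0.94 to 0.21.

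The metallothioneins Mt1 (chromosome 8, 94179082 to 94180327) and Mt2, which bind zinc and copper, were lower in HFD. Mt1 was at 11.67, 12.36 and 12.17 in LFD and 10.50, 9.83 and 9.20 in HFD, a difference of -2.22 (standard error 0.42, adjusted p = 0.174). Mt2 was at 9.24, 9.95 and 10.06 in LFD and 8.58, 8.04 and 7.46 in HFD (difference -1.72). Both and the zinc transporter Slc30a2 had no overlap between groups. In the whole list of oxidative stress and metals 5 of 23 were higher and 5 lower, compared with 11.5% and 8.35% of all genes. The peroxiredoxin Prdx1 was at 10.82, 10.84 and 11.12 in LFD and 11.43, 12.26 and 12.03 in HFD. Gpx2, the glutathione peroxidase of epithelia, was at 5.91, 7.06 and 6.32 in LFD and 7.79, 7.96 and 7.73 in HFD, and both had no overlap. Cyp2e1 (chromosome 7, 140763739 to 140774987), a cytochrome P450 that oxidizes ethanol and ketones, was at 7.57, 6.87 and 6.69 in LFD, 5.14, 5.16 and 4.73 in HFD and 4.33 and 3.55 in ob/ob (difference to LFD -2.03, adjusted p = 0.151). Of the detoxification list 6 of 30 (20%) were lower and 3 higher, compared with 8.35% and 11.5% of all genes. The glutathione transferase Gstm1 was lower, at 9.78, 9.67 and 9.62 in LFD and 9.13, 7.98 and 7.57 in HFD. Another transferase, Gsta4, was higher, at 6.68, 7.65 and 7.53 in LFD and 7.97, 9.34 and 8.17 in HFD. Leaving out each mouse took the lower detoxification genes from 3 (without LFD replicate 2) to 10 (without HFD replicate 1) and the higher genes of the stress list from 4 (without LFD replicate 1 or LFD replicate 3 or HFD replicate 2 or HFD replicate 3) to 11 (without HFD replicate 1). In the model with the acinar mean the stress list had 3 higher and 3 lower genes and the detoxification list 5 lower ones.

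Few islet genes differed between the diets: 1 of 27 was higher and 0 lower at an unadjusted p under 0.05, compared with 11.5% and 8.35% of all genes. The list median was -0.44. Ins1 was at 11.32, 12.26 and 11.16 in LFD and 11.51, 11.06 and 10.85 in HFD, with LFD replicate 2 the highest of the diet mice, and the somatostatin gene Sst differed by -0.78. Compared with the ob/ob mice, 16 of 27 (59.3%) were lower in HFD, against 2.28% of all genes. HFD minus ob/ob was -2.06 for Scg2, of secretory granules, -1.96 for Abcc8, a subunit of the beta cell potassium channel, and -1.68 for Ins1, each with an adjusted p of 0.883.

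Among lymphocyte genes 0 of 16 B cell genes and 1 of 23 T and NK cell genes were higher at an unadjusted p under 0.05, and 0 and 0 were lower. Over all genes 11.5% were higher and 8.35% lower. Pax5, the factor of B cell identity, was at 1.76, 7.13 and 1.998 in LFD and 1.91, 1.57 and 2.80 in HFD. Cd8a, of cytotoxic T cells, was at 3.24, 4.94 and 2.95 in LFD and 3.29, 3.72 and 4.54 in HFD. LFD replicate 2 was the highest of the 6 mice for these genes, and without it the median of the B cell list went from -0.34 to 0.23. Il7r, the interleukin 7 receptor, was the T cell gene without overlap, at 5.21, 5.58 and 4.40 in LFD and 5.77, 6.24 and 6.22 in HFD. Endothelial genes had a median of 0.28 and 4 of 20 higher, with Pecam1 at 8.87, 9.19 and 8.59 in LFD and 8.76, 9.17 and 9.11 in HFD. Mesothelial genes were 3 higher and 2 lower of 10, Msln being at 8.17, 8.81 and 8.28 in LFD and 8.37, 10.40 and 10.04 in HFD and Upk3b at 6.999, 5.92 and 6.82 in LFD and 6.40, 5.38 and 4.76 in HFD. The acinar covariate left 2 higher endothelial genes and 0 higher and 0 lower mesothelial genes.

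Adipocyte genes, which the fat around the pancreas expresses, had a median of -0.05. Of 18 genes 2 were higher and 2 lower (11.1% each), compared with 11.5% and 8.35% of all genes. Lep, which encodes leptin, was at 6.20, 5.86 and 6.28 in LFD and 7.27, 7.26 and 7.31 in HFD, without overlap and with nearly equal HFD mice (difference 1.17, adjusted p = 0.18). Cfd, which encodes adipsin, was at 8.41, 7.67 and 7.50 in LFD and 5.97, 6.78 and 5.79 in HFD (difference -1.68, adjusted p = 0.177), while Adipoq differed by 0.16 and Plin1 by -0.04 with overlap. Red blood cell genes were high in HFD replicates 1 and 3 and not in replicate 2, with Hbb-bs at 11.997, 13.04 and 12.49 in LFD and 13.50, 11.68 and 13.82 in HFD. The lists of Schwann cells, skeletal muscle and lymphoid stroma, with 10, 5 and 6 genes, had 1, 1 and 0 higher and 1, 0 and 0 lower members at an unadjusted p under 0.05.

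Some genes set the HFD mice apart from all other 5 mice. With an unadjusted p under 0.05 against both LFD and ob/ob and no overlap with either, 79 genes (0.525%) were higher and 44 genes (0.292%) lower in HFD. The widest gaps on the lower side included Dbp, Nr1d2 and Per1 of the clock. Gfra1 (chromosome 19, 58235604 to 58455909), a receptor for the neurotrophic factor GDNF, was at 7.01, 6.69 and 7.03 in LFD, 5.56, 5.28 and 5.46 in HFD and 7.18 and 6.28 in ob/ob (difference to LFD -1.48, adjusted p = 0.174). Baiap3, which acts in dense-core vesicle release, was at 5.10, 4.94 and 4.51 in LFD and 3.56, 3.47 and 3.52 in HFD, with 5.08 and 4.68 in ob/ob. The kinase Map3k12 was at 6.40, 6.34 and 6.55 in LFD and 5.82, 5.82 and 5.87 in HFD, with 6.32 and 6.96 in ob/ob. The 3 HFD mice lay close together in Gfra1, Baiap3 and Map3k12, and apart from every other mouse.

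On the higher side, Tnfrsf11b (chromosome 15, 54250619 to 54278484), which encodes osteoprotegerin, was at 5.55, 6.41 and 6.17 in LFD, 7.22, 8.001 and 7.75 in HFD and 6.46 and 6.55 in ob/ob (difference to LFD 1.61, adjusted p = 0.169). Ccl24, a chemokine for eosinophils, was at 5.24, 4.98 and 5.14 in LFD and 6.66, 6.40 and 6.005 in HFD, with 5.36 and 5.18 in ob/ob, and it was highest in HFD replicate 1. Gata5, a transcription factor of foregut and heart, was at 3.67, 3.75 and 3.06 in LFD and 4.53, 4.44 and 6.87 in HFD. The transporter Abca13 was at 3.59, 3.11 and 3.001 in LFD and 4.35, 4.37 and 6.39 in HFD. In both, replicate 3 was far above replicates 1 and 2. The unnamed genes were 1500009C09Rik at 2.41, 2.19 and 2.67 in LFD and 3.60, 4.03 and 4.31 in HFD and 1700016C15Rik at 2.57, 2.40 and 3.08 in LFD and 4.01, 4.37 and 4.59 in HFD. These values are low on the rlog scale, where differences are shrunk most.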

How the data were processed

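Total RNA of the pancreas of 8 mice was sequenced, and the authors deposited rlog values (log2 scale) of gene read counts, one table for the series. Per the study's methods and the submitters' processing notes, transcripts were quantified with Salmon 0.11.3 and passed through tximport to DESeq2 1.22.2. The rlog transformation shrinks differences of genes with few reads, and no counts were used here, so depth is unknown and no count model was run. Two-sided tests used limma 3.58.1 in R 4.3.3, with group means over all 8 mice, a mean-variance trend and Benjamini-Hochberg adjustment over 15047 genes. Without counts, no further filter was applied in the main fit. The deposited values are named as filtered, and the rule of that filter is not given in the sources used here. The test was tried on simulated data with the same groups, where shifts of 2, 4, 8 and 16 residual SDs were called in 0%, 24%, 92% and 100% of the altered genes. Of the unaltered genes 5 were called. The simulated mice had independent noise with the same SD in every group, whereas 69.2% of the measured genes had the larger SD in HFD. These shares therefore need not hold for the measured data.

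The labels put each mouse in its group. Nothing in them says that same-numbered mice shared a cage or day, so mice were not paired. Genes were named by these rules: the 12 widest gaps in each direction, the 5 smallest p in each direction, the 4 smallest p of each list, the 6 widest gaps to the other 5 mice, and defining markers of cell types. A few genes that these rules name are not reported here. Other list members named were chosen after their values were seen. The comparison and the gene lists were chosen with earlier results of these data known, so the direction of a list is no independent evidence. Alternatives were centring, quantile scaling, array weights, a filter on low values, no trend, only 6 mice, a replicate block, the acinar mean as a covariate and leaving out each mouse. Positions are from Gencode M21 on GRCm38, promoters from RefSeq on GRCm38.p6.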

Additional observations from a re-analysis of the deposited data

Results flagged for a closer look

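In 5 of the genes named above, the 3 HFD mice lay on one side of the LFD mean and both ob/ob mice on the other. Car2, Onecut2 and Erbb2 were above the LFD mean in HFD and below that mean in ob/ob, with HFD minus ob/ob at 1.97, 1.62 and 1.05. For Onecut2 and Erbb2 both ob/ob mice lay within the LFD range, and for Car2 the ob/ob mouse at 7.37 did. The ob/ob mice were not tested against LFD. The values of Car2 were 7.15, 8.33 and 7.45 in LFD and 8.72, 8.90 and 10.04 in HFD and 7.37 and 7.12 in ob/ob. For the islet genes Abcc8 and Ins1 the order was the reverse, with HFD minus ob/ob at -1.96 and -1.68. Each of these differences had an unadjusted limma p under 0.05 and an adjusted p of 0.883, over 3 HFD and 2 ob/ob mice, and LFD replicate 2 was above HFD replicate 1 for Ins1. The LFD mice enter both sides of this sorting, and no group had the 4 mice needed to look for a mouse far from its group.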

How the results depend on the processing

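The counts of genes moved with the weighting of mice, the samples in the fit and the acinar covariate, and the cause was not tested. With limma array weights, which gave HFD replicate 2 a weight of 9.36 and HFD replicate 1 a weight of 0.273, 4357 genes were higher and 3579 lower at an unadjusted p under 0.05, and 6656 had an adjusted p under 0.05. With the acinar mean as a covariate these were 906, 705 and 0. With only the 6 LFD and HFD mice 1 gene, Rnu3b1, had an adjusted p under 0.05. Leaving out each mouse in turn gave 909 to 2984 higher genes, 554 to 2461 lower genes and 0 to 2812 genes with an adjusted p under 0.05, the highest of each without HFD replicate 1. The other alternatives left the counts within 1.5 times, and the genes without overlap numbered 3155 of those with a mean of at least 5, 3843 after centring and 3889 after quantile normalization, compared with 3785. For 308 of 1840 values of single genes the adjusted p came under 0.05, all with array weights or without HFD replicate 1, and 1493 kept their direction and their side of the threshold.

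Same-numbered LFD and HFD mice had correlations of deviations of -0.060, 0.113 and -0.281. Pairs with different numbers had -0.268 to 0.328. Deviations from a mean of 3 mice are not independent, so these values cannot decide whether same-numbered mice shared a cage or day. A replicate block in the fit gave 1631 higher and 1049 lower genes, and 1 gene (Rnu3b1) had an adjusted p under 0.05.

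Differences of single genes that were small or rested on few mice changed sign. In the model with the acinar covariate this held for Bhlhe41 (-0.0446), Cd163 (0.00869), Cd8a (-0.59), Ddit3 (-0.17), Fpr1 (-0.31), Padi4 (-0.22), Pdgfrb (-0.0917), Plin1 (0.18), Prss2 (0.31), Ptf1a (0.28), Reg3a (1.10), Reg3b (0.61), Scg2 (0.11) and Sox9 (0.0654). Array weights did so for Cd163 (0.0518), Cd8a (-0.17), Clock (-0.20), Hbb-bs (-0.74), Plin1 (0.23) and Sox9 (0.0325), and quantile normalization for Bhlhe41 (-0.0300), Cd8a (-0.0372), Ddit3 (-0.0292) and Prss2 (0.0908). Leaving out each mouse in turn gave differences of -0.0103 to 0.44 for Adipoq, -0.24 to 0.76 for Cd8a, -0.16 to 0.37 for Clock, -0.18 to 0.34 for Ddit3 and -2.47 to 0.21 for Pax5. It also gave -0.0168 to 0.28 for Pecam1, -0.23 to 0.22 for Plin1, -1.33 to 0.26 for Reg3a, -0.0547 to 0.0533 for Sox9 and -0.28 to 0.0425 for Srebf1.

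Of the list medians 439 of 490 moved by less than 1 SD between mice. Of the 51 that moved further, 25 (of 49 lists) did so with the acinar covariate, among them the medians of mitosis genes (1.58 to 0.62), collagens (1.25 to 0.57) and EMT genes (0.88 to 0.27). Signs changed for B cells without LFD replicate 2 (to 0.23), for erythroid cells with array weights (from 0.66 to -0.77), and with the acinar covariate for Reg, ribosomal and oxidative phosphorylation genes. Medians near 0, of clock activators, fatty acid uptake, Schwann cells, adipocytes, T and NK cells, skeletal muscle and lymphoid stroma, also changed sign in at least 1 alternative. Since no counts were used, what depth limits cannot be given, and values near the low end of the rlog scale are shrunk.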
